A study of Mus musculus with 8 samples.

Results

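The genes described here are 10 adipocyte genes of gonadal white adipose tissue (WAT) that were chosen by name from the 54532 genes of the deposited count table: the hormone and secreted protein genes Adipoq, Lep, Retn, Cfd and Rbp4, the lipid droplet genes Plin1 and Cidec, the receptor gene Adrb3, and the lipase genes Lipe and Pnpla2. All 10 were found in the table. Their reads come from bulk RNA of the stromal vascular fraction (SVF), the cells left when 1 gonadal pad is digested with collagenase, adipocytes are floated off and red cells are lysed. The donors were male C57BL/6J mice, listed as 6 weeks old when they went on a high-fat diet (HFD, 60% of calories from fat). They stayed on it for 12 weeks, and were then moved to a normal chow diet (NCD, 16% of calories from fat). The study's text gives 6 weeks for its mice kept on HFD throughout and no age for the diet-switched mice. Its methods have mice obtained at 8 or 16 weeks of age. With the diet change, 4 mice (1, 2, 6 and 9) began to receive an isotype control Ab and 4 mice (5, 7, 8 and 10) the anti-BAFF Ab, each at 2 mg/kg every 2 weeks for 6 weeks, up to week 18. BAFF is a survival factor of B cells, and the groups therefore compare obese, diet-switched mice with and without its neutralization, with no lean mice and no intact fat among them.

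White adipocytes store triglyceride in a droplet coated by perilipin 1 and enlarged by CIDEC. They release it through adipose triglyceride lipase and hormone-sensitive lipase when catecholamines reach the β3-adrenergic receptor. They also secrete hormones, among them adiponectin, leptin and, in mice, resistin. The SVF holds macrophages, adipocyte progenitors, endothelial cells, lymphocytes and mesothelial cells, so that transcripts of mature adipocytes measured in it can come from cells that were not floated off, from free RNA, or from cells of the fraction that use the same gene.

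RefSeq (GRCm38.p6, the assembly that mm10 denotes) gave a promoter window of 250 bases before to 50 after the start for 9 of the 10 genes, and Adrb3 was without one. The windows of 3 genes are shown because they stand for the kinds of level reported below: a hormone gene that varied more than most genes between the mice (Adipoq), a hormone gene that varied near the median of all genes (Lep), and the abundant and steady Pnpla2. Capitals mark matches on either strand to a TATA box searched as TATAA, a box searched as CCAAT, a GC box searched as GGGCGG, or a C/EBP site searched as TTGCNNAA.
Adipoq, chr16:23146286-23146585, plus strand: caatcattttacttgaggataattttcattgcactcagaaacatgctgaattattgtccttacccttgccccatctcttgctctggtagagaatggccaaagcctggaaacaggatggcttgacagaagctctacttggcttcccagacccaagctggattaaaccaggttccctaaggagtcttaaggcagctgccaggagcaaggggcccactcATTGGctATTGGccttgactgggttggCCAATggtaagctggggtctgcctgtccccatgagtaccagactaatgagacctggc
Lep, chr6:29059971-29060270, plus strand: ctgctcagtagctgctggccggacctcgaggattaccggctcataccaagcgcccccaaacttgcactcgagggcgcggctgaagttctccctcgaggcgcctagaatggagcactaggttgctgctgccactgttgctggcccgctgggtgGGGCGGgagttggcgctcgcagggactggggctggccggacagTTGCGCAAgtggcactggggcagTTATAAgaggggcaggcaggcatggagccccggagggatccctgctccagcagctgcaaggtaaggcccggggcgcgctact
Pnpla2, chr7:141454938-141455237, plus strand: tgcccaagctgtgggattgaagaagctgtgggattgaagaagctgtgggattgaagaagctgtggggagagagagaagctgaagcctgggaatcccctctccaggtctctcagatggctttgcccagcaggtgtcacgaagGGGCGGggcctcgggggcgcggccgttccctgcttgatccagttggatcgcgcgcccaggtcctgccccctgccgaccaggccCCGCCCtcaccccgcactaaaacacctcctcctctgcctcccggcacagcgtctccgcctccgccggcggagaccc
The Adipoq window held 3 CCAAT matches, which began at positions -34, -27 and -7 from the start. The Lep window held a TATA match on the strand of the gene at -31 that overlapped one on the other strand at -32, a C/EBP match at -55 and a GC box at -98. The Pnpla2 window held GC boxes at -109 and -26. Such matches are common: of 32851 promoters in the RefSeq table, 24.9% held the TATA letters, 37.4% CCAAT, 35.7% the GC box and 10.8% the C/EBP letters, while 1, 2, 3 and 2 of the 9 windows did. The letters AGGTCA, part of a PPAR site, were in 16.3% of all promoters and in 0 of the 9 windows. A match is a description of these letters and was not tied to any measured level.

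The fraction was first checked against its label. Markers of macrophages (8 genes, 8218 to 13208 CPM when summed, where CPM are counts scaled to TMM-corrected library sizes) and of progenitors (10 genes, 4228 to 7486 CPM) were abundant in each of the 8 mice. The 12 mature adipocyte markers, chosen apart from the 10 genes, summed to between 86.8 and 197 CPM. Car3, a carbonic anhydrase, made the largest part with group means of 69.2 ± 20.5 (control Ab) and 74.0 ± 17.8 CPM (anti-BAFF Ab, SD, n = 4 each). Acvr1c and Slc7a10, markers restricted to mature adipocytes, were under 1 CPM on average in both groups, and none of the 12 was at 0 in any mouse. Both were too scarce to be tested between the groups. Slc7a10 did not overlap, at 0.372 to 0.532 CPM with control Ab and 0.607 to 1.01 CPM with anti-BAFF Ab. Of all tested genes, 1.48% did not overlap. Control mouse 1 stood apart: it had the lowest sums of adipocyte, progenitor, endothelial, mesothelial and mural markers and the highest sums of macrophage and lipid-associated macrophage markers. Genes of the epididymis, the duct beside the pad, summed to 1635 CPM in control mouse 2 and 1632 CPM in anti-BAFF mouse 7 against at most 674 CPM in the other mice. Of these 10 genes, 8 were at 0 in some mouse, 2 were at 0 in all mice and 3 were tested. Crisp1, Adam7 and Lcn5 made most of the sum. As a check of the treatment, 8 B cell markers summed to 1056 to 1682 CPM with control Ab and to 171 to 404 CPM with anti-BAFF Ab, with no overlap. Most of each sum was Ighm, with group means of 1400 and 273 CPM. All 8 markers had a log2 fold change below 0. The ranges of Cd79b overlapped, at 4.40 to 7.15 and 2.76 to 5.99 CPM. Only Ighm passed the test described below (edgeR adjusted p = 0.0448). The 10 genes together made 0.0204% of a library, from 13 counts of Adrb3 in control mouse 1 to 2177 counts of Pnpla2 in control mouse 2, out of 13562340 to 18548024 counts per mouse.

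No adipocyte gene of the 10 passed the test between mice given anti-BAFF Ab and mice given control Ab. All 10 passed the filter on low counts, 0 of 10 were called by edgeR's quasi-likelihood test at an adjusted p of 0.05, and each adjusted p was 1.00. The share called among all 15963 genes tested was 0.0564%. At an unadjusted p of 0.05 the count was 0 of 10, against 1.9% of all genes, and the smallest unadjusted p was 0.125, for Retn. Without control mouse 1, the mouse that stood apart, 2 of 10 were under 0.05 unadjusted and 0 of 10 were called. The 2 were Cfd (log2 fold change -0.62, edgeR unadjusted p = 0.0265, adjusted p = 0.417) and Retn (-0.71, edgeR unadjusted p = 0.0370, adjusted p = 0.444). The 1.9% holds for the fit of all mice only. No share of all genes is given without control mouse 1, so the 2 of 10 cannot be set against the 1.9%. DESeq2 also called 0 of 10, against 0.269% of the genes it tested. The CPM values of the groups did not separate for any of the 10 genes, against 1.48% of all genes. The log2 fold changes (anti-BAFF Ab over control Ab) were above 0 for 6 genes and below 0 for 4, with a median of 0.07, and the median of all genes was 0.0041. In a bulk sample, fewer cells of a type and less RNA per cell cannot be told apart.

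**Figure D1:**
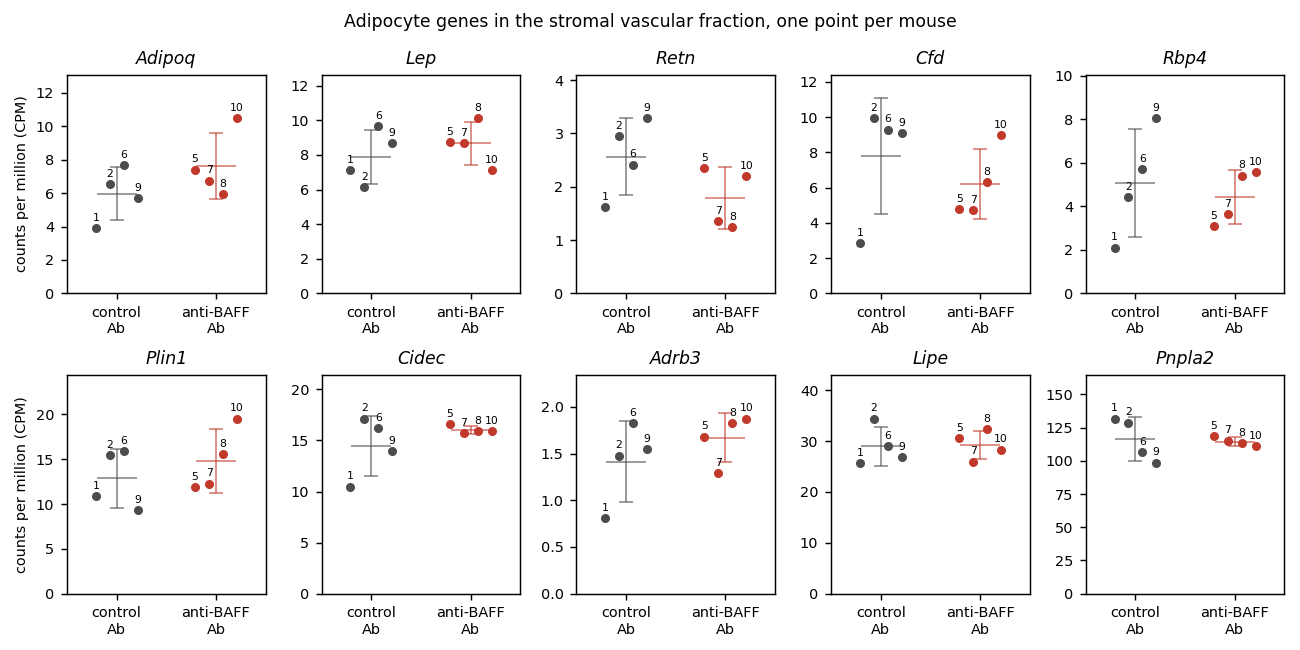
CPM of the 10 adipocyte genes in the SVF of each mouse, with the mouse number above each point, control Ab-treated mice in grey and anti-BAFF Ab-treated mice in red. The horizontal line is the mean and the bars are the SD of 4 mice; the groups overlapped for each gene, and control mouse 1 was lowest for 6 of the 10.

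Among the secreted proteins, adiponectin and leptin are the main hormones of the mature adipocyte. Adipoq (chromosome 16, 23146536 to 23158028) was at 3.91, 6.56, 7.68 and 5.70 CPM in control mice 1, 2, 6 and 9 and at 7.41, 6.76, 5.94 and 10.5 CPM in anti-BAFF mice 5, 7, 8 and 10. Control mouse 1 was lowest and anti-BAFF mouse 10 highest, and the remaining 6 values of both groups lay among each other. The group means were 5.96 ± 1.59 and 7.64 ± 1.98 CPM (SD, n = 4 each), a log2 fold change of 0.36 (standard error 0.25, 95% interval -0.20 to 0.92). The interval spans a fall to 0.873-fold and a rise to 1.89-fold, and sizes within it could not be told from no change. The value was 0.17 without anti-BAFF mouse 10 and 0.19 without control mouse 1.

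Lep (chromosome 6, 29060220 to 29073877) was at 7.13, 6.15, 9.66 and 8.67 CPM with control Ab and at 8.75, 8.67, 10.1 and 7.11 CPM with anti-BAFF Ab. Among the anti-BAFF mice, the lowest value was that of mouse 10, which had the most Adipoq. The log2 fold change of Lep was 0.13 (standard error 0.18, 95% interval -0.27 to 0.53), and it ran from 0.0305 without control mouse 2 to 0.24 without control mouse 6.

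Resistin, complement factor D and retinol-binding protein 4 are also released by adipocytes. All 3 had means that were lower with anti-BAFF Ab, and none passed the test. Retn (chromosome 8, 3655770 to 3660110) was at 1.61, 2.96, 2.41 and 3.28 CPM with control Ab and at 2.36, 1.35, 1.24 and 2.21 CPM with anti-BAFF Ab. Here 3 of the control mice were above each of the anti-BAFF mice, and control mouse 1 fell among the latter. Its log2 fold change of -0.52 (standard error 0.31, 95% interval -1.22 to 0.18) was the largest in size of the 10. With 19 to 53 counts per mouse, Retn was also among the least deeply counted.

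Cfd (chromosome 10, 79890853 to 79892655), which encodes adipsin, was at 2.85, 9.93, 9.29 and 9.11 CPM with control Ab and at 4.78, 4.73, 6.33 and 8.99 CPM with anti-BAFF Ab. Here control mouse 1 lay far below the other control mice, which were close together and above all 4 anti-BAFF mice. The log2 fold change was -0.33 (standard error 0.38, 95% interval -1.17 to 0.52), and it ran from -0.62 without control mouse 1 to -0.19 without control mouse 2. Rbp4 (chromosome 19, 38116620 to 38125321), the carrier of retinol, was at 2.11, 4.43, 5.71 and 8.05 CPM with control Ab and at 3.10, 3.66, 5.42 and 5.57 CPM with anti-BAFF Ab. Its highest mouse was 3.82-fold above its lowest, the widest such ratio of the 10 genes, and both were controls. Its log2 fold change was -0.19 (standard error 0.38, 95% interval -1.04 to 0.66), and it was 0.13 without control mouse 9. The summed level of the 5 secreted proteins' genes was 29.3 ± 8.11 CPM and 28.7 ± 4.08 CPM (SD, n = 4 each).

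**Figure D2:**
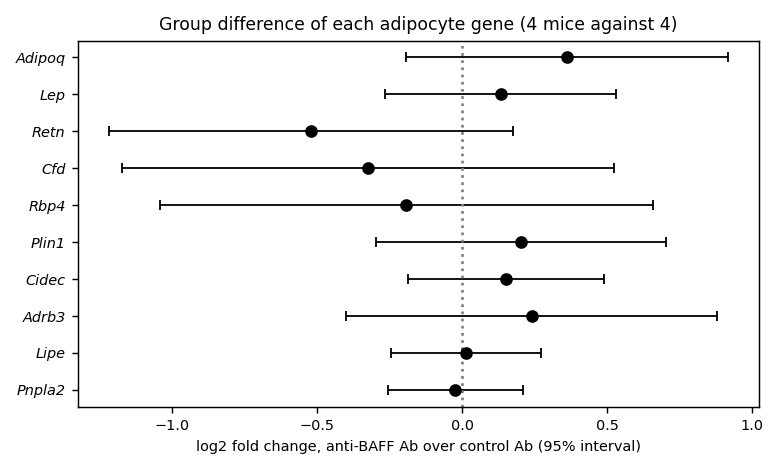
Log2 fold change of each gene, anti-BAFF Ab over control Ab, with its 95% interval from edgeR; the dotted line marks no difference. Each interval crosses 0, and those of Lipe and Pnpla2 are the narrowest while those of Cfd and Rbp4 are the widest.

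Both genes of the droplet coat had slightly higher means in the anti-BAFF Ab-treated mice. Plin1 (chromosome 7, 79720218 to 79732903) was at 10.9, 15.5, 15.9 and 9.29 CPM with control Ab and at 11.8, 12.3, 15.6 and 19.5 CPM with anti-BAFF Ab. Only anti-BAFF mouse 10 lay above the range of the controls. For Plin1 the log2 fold change came to 0.20 (standard error 0.22, 95% interval -0.30 to 0.70), and without anti-BAFF mouse 10 it was 0.0421. Cidec (chromosome 6, 113424634 to 113435760) lay between 15.7 and 16.6 CPM in all 4 anti-BAFF mice and between 10.5 and 17.1 CPM in the control mice. Its log2 fold change came to 0.15 (standard error 0.15, 95% interval -0.19 to 0.49), and it was 0.0072 without control mouse 1.

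The receptor gene Adrb3 (chromosome 8, 27225776 to 27250616) was the scarcest of the 10, at 0.806, 1.48, 1.83 and 1.55 CPM with control Ab and 1.68, 1.29, 1.83 and 1.88 CPM with anti-BAFF Ab. These values rest on 13 to 34 counts per mouse, and counting alone would give a coefficient of variation of 20.1% where 23.3% was measured over the 8 mice. The log2 fold change came to 0.24 (standard error 0.28, 95% interval -0.40 to 0.88), and without control mouse 1 it was 0.0287. An antisense gene, Gm45470, overlaps Adrb3, and another, 4732471J01Rik, overlaps Lipe. Whether counting used the strand is not given in the sources used here, and both were scarce at 0.0316 and 0.515 CPM on average.

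The lipases were the best measured. Pnpla2 (chromosome 7, 141455198 to 141460743), which encodes adipose triglyceride lipase, was at 132, 129, 106 and 98.6 CPM with control Ab and at 118, 115, 113 and 111 CPM with anti-BAFF Ab. The control mice lay on both sides of the anti-BAFF mice, whose SD was 3.20 CPM against 16.4 CPM in the controls. For Pnpla2 the fit gave a log2 fold change of -0.02 (standard error 0.10, 95% interval -0.26 to 0.21), a range of 0.837- to 1.16-fold. Lipe (chromosome 7, 25379527 to 25398710), which encodes hormone-sensitive lipase, was between 25.7 and 34.4 CPM with control Ab and between 26.0 and 32.3 CPM with anti-BAFF Ab. Its log2 fold change was 0.01 (standard error 0.11, 95% interval -0.24 to 0.27). Summed over all 10 genes the level averaged 203 ± 17.7 CPM in control and 205 ± 6.61 CPM in anti-BAFF mice (SD, n = 4 each), and Pnpla2 alone made 52.2% to 66.8% of that sum. Without the lipases the sums were 58.0 ± 12.7 and 61.3 ± 7.72 CPM.

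Levels were compared between genes per length, as FPKM computed from the deposited counts and gene lengths. The mean over the 8 mice was 38.2 FPKM for Pnpla2, 8.22 for Cidec, 7.59 for Cfd, 4.95 for Lipe, 4.93 for Adipoq, 3.67 for Rbp4, 2.98 for Plin1, 2.47 for Lep, 1.38 for Retn and 0.457 for Adrb3. The median of all tested genes was 4.27 FPKM, so Pnpla2 was above 92.1% of them, Adipoq above 53.6% and Adrb3 above 10.1%. Neighbours in this order were compared within each mouse by two-sided exact sign-flip permutation tests, with Benjamini-Hochberg adjustment over the 9 pairs. Pnpla2 was above Cidec in 8 of 8 mice (adjusted p = 0.0352, exact permutation), Retn above Adrb3 in 8 of 8 (adjusted p = 0.0352, exact permutation), and Lep above Retn in 7 of 8 (adjusted p = 0.0469, exact permutation). The other 6 neighbour pairs did not differ beyond their spread. With only 7 mice the smallest exact permutation p is 0.0156, and 0 of the 9 pairs passed when control mouse 1 or 6 or any one of the anti-BAFF mice was left out, while 3 passed without control mouse 2 or 9.

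**Figure D3:**
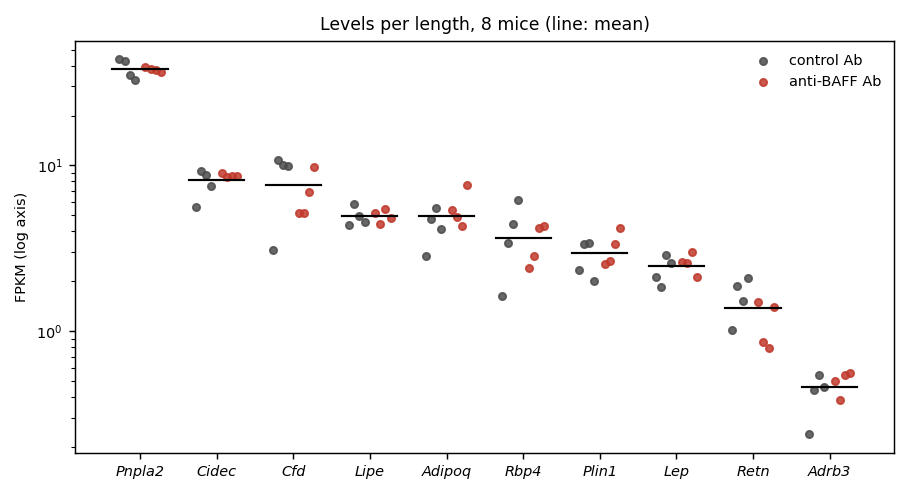
FPKM of the 10 genes on a log axis, one point per mouse (control Ab in grey on the left of each gene, anti-BAFF Ab in red on the right), ordered by the mean of the 8 mice, which is drawn as a line. Pnpla2 stands above the rest with a mean of 38.2 FPKM, the levels from Cidec to Lep run into each other, and Adrb3 is lowest.

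The genes varied between mice to different degrees. Over the 8 mice the coefficient of variation of CPM was 38.9% for Rbp4, 38.2% for Cfd, 33.8% for Retn, 27.8% for Adipoq and 24.2% for Plin1, and fell to 16.5% for Lep, 14.0% for Cidec, 10.7% for Lipe and 9.49% for Pnpla2. For Cfd and Rbp4 counting error would give 9.41% and 11.4%, so most of their spread was between the mice. The SD of log2 CPM was larger for Cfd than for 91.8% of all tested genes and for Pnpla2 larger than for 24.2%. Control mouse 1 had the lowest value of 6 genes (Adipoq, Cfd, Rbp4, Cidec, Adrb3 and Lipe) and the highest value of Pnpla2.

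Across the 8 mice, the 10 genes were correlated to very different degrees. Adipoq correlated most with Adrb3 (Pearson's r of log2 CPM 0.80, Spearman's rho 0.71) and Cidec (r = 0.78, rho = 0.62), then Plin1 (r = 0.69, rho = 0.74) and Cfd (r = 0.61, rho = 0.29), and had r = 0.03 with Lep and r = -0.39 with Pnpla2. None of these 9 relations passed the Benjamini-Hochberg adjustment over the 9 (lowest adjusted p of r 0.145, exact permutation). Without control mouse 1 and anti-BAFF mouse 10, the pair farthest from the median of Adipoq, r was 0.16 with Adrb3, 0.64 with Cidec and 0.37 with Plin1. Of the 13 lists of markers, none passed with Adipoq either (lowest adjusted p of r 0.298, exact permutation).

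The relations of the other 9 genes to the 13 marker lists, 117 in all, were computed after the values had been seen. Rbp4 rose with the summed progenitor markers (r = 0.95, rho = 0.90, adjusted p over the 117 = 0.0319, exact permutation), and within the groups r was 0.99 (control Ab) and 0.97 (anti-BAFF Ab) over 4 mice each. Without control mice 1 and 9, the pair farthest from the median of Rbp4, r was 0.92. The other 7 that passed were Rbp4 with mural (r = 0.94), mesothelial (r = 0.90) and macrophage markers (r = -0.90), Cfd with mesothelial (r = 0.91) and mural markers (r = 0.91), Adrb3 with endothelial markers (r = 0.89) and Pnpla2 with brown adipocyte markers (r = -0.91), each with an adjusted p of 0.0453 (exact permutation). Their rho ran the same way, and without the 2 mice farthest from the median of the gene r was 0.85, 0.64, -0.69, 0.67, 0.70, 0.66 and -0.75 in that order. Within the groups, Pnpla2 with brown adipocyte markers had r = -0.99 (control Ab) and -0.07 (anti-BAFF Ab). The brown list was scarce, at 4.03 to 8.92 CPM when summed. Only 3 of its 6 genes were tested, and Ucp1 and Elovl3 were at 0 in some mice. None of the 117 passed once any one mouse other than control mouse 2 was left out, although the 8 kept their direction. The lists and the genes share their libraries, in which a larger share of one cell type leaves less for the others, and the part of the cell mixture in the gene levels was not tested. Pnpla2 ran against Rbp4 over the same mice (r = -0.84, rho = -0.93, adjusted p of r over its 9 gene relations 0.0879, exact permutation). It ran with the macrophage markers (r = 0.85, rho = 0.86, adjusted p of r over the 117 0.0725, exact permutation). Without control mice 1 and 9, the pair farthest from the median of Pnpla2, r was -0.52 and 0.67.

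**Figure D4:**
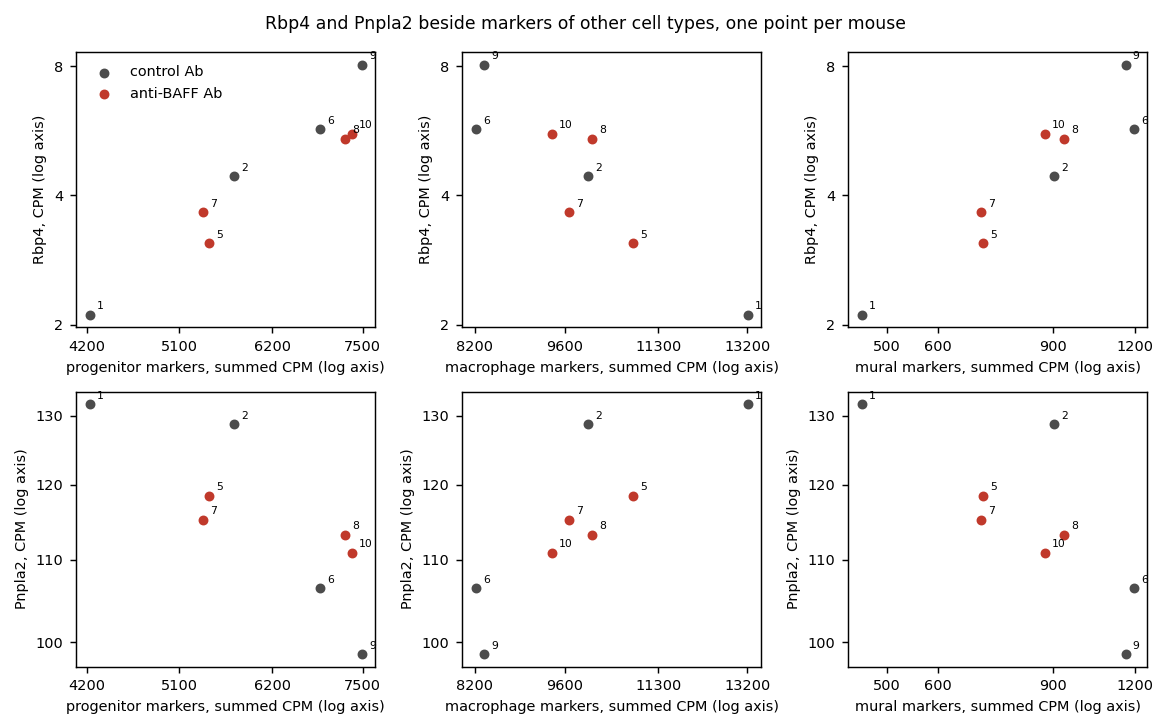
CPM of Rbp4 (top) and Pnpla2 (bottom) against the summed CPM of progenitor, macrophage and mural cell markers, all on log axes, one numbered point per mouse (control Ab in grey, anti-BAFF Ab in red). Rbp4 climbs with progenitor markers (r = 0.95) and declines with macrophage markers (r = -0.90), and control mouse 1 lies at one end of each panel. Pnpla2 runs the other way (r = -0.82 with progenitor, 0.85 with macrophage and -0.77 with mural markers), but none of its relations drawn here passed the adjustment.

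The wider pathways gave the same picture of no called difference. Of 16 other adipokine genes 14 were tested, and 0 were called in either direction (9 below and 5 above 0, median log2 fold change -0.04). Nrg4, a neuregulin released by brown fat, had the lowest p of the list. Its means were 1.56 ± 0.192 CPM in control and 1.10 ± 0.171 CPM in anti-BAFF mice (SD, n = 4 each). Its groups did not overlap, as was so for 1.48% of all tested genes. Its log2 fold change was -0.50 (edgeR unadjusted p = 0.0505, adjusted p = 1.00). Sfrp5, a secreted Wnt inhibitor, was next at -0.60. Abundant genes of the list included Metrnl (210 and 215 CPM), Hp (haptoglobin, 128 and 138) and Angptl4 (a lipoprotein lipase inhibitor, 111 and 135), as means of the control and anti-BAFF groups.

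Of 19 further genes of the droplet and of triglyceride synthesis 15 were tested and 0 were called (8 below and 7 above 0, median -0.04). Plin2, the perilipin of small droplets in many cell types, was at 246 FPKM against 2.98 for Plin1, and its log2 fold change was 0.02 (standard error 0.30). The caveolar coat genes Cavin1 and Cav1 and the droplet gene Hilpda had log2 fold changes of 0.05, 0.02 and 0.12, and the lowest p were those of Bscl2 (seipin, -0.11) and Plin5 (-0.55).

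Of 17 genes of lipolysis and its control 16 were tested and 0 were called (median -0.00077). Mgll, the lipase of the last step, Npr1, the natriuretic peptide receptor, Gnas and Prkaca, which carry the signal of the β-adrenergic receptors, had log2 fold changes of -0.05, -0.05, -0.04 and -0.0015. Hcar2, the niacin receptor, had 1.39 (standard error 0.77) on the strength of 29.3 CPM in anti-BAFF mouse 5, the mouse with the highest sum of neutrophil markers (168 CPM against 28.6 to 40.9 CPM in the control mice), and the part of such cells in it was not tested. Adora1, the adenosine receptor that restrains lipolysis, had -0.65 (standard error 0.63).

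Of 20 adipogenic and metabolic genes all 20 were tested, with 0 called (12 below and 8 above 0, median -0.02). An unadjusted p under 0.05 was held by 1 of the 20, against 1.9% of all genes tested. That gene was Irs1, an insulin receptor substrate, at 11.6 ± 2.11 and 9.04 ± 1.23 CPM (SD, n = 4 each), with a log2 fold change of -0.37 (edgeR unadjusted p = 0.0465, adjusted p = 1.00). The number of the 20 under 0.05 unadjusted was 0 with limma, with a covariate for epididymis genes and without control mouse 2 and anti-BAFF mouse 7. It was 5 without control mouse 1, 1 without anti-BAFF mouse 5 and 0 without any other single mouse. The 1.9% holds for the fit of all 8 mice only, and no share of all genes is given for these settings. Cd36 (825 FPKM), Cebpb (499 FPKM), Lpl (285 FPKM) and Fabp4 (149 FPKM) were far above the 10 genes per length, and macrophages and endothelial cells also use several of them. Pparg, the regulator of adipocyte formation, was at 12.7 FPKM with a log2 fold change of -0.10 between the groups (standard error 0.09).

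Of 10 genes for receptors of the secreted proteins 9 were tested and 0 were called (median 0.02). The adiponectin receptor genes Adipor1 (177 and 179 CPM) and Adipor2 (113 and 111 CPM) had log2 fold changes of 0.02 and -0.03 with standard errors of 0.07 and 0.09. C3ar1, the C3a receptor, had 0.12, Cap1, a resistin-binding protein, 0.05, and Stra6, the receptor of retinol-binding protein, -0.66 (standard error 0.70) at about 1 CPM. Of the 12 mature adipocyte markers 10 were tested and 0 were called (5 below and 5 above 0, median -0.01). Among them were Plin4 (0.09), Car3 (0.10), Tshr (0.29), Adig (0.13), Pck1 (-0.03), Nat8l (-0.13), Cdo1 (-0.26), Slc2a4 (-0.26) and Thrsp (-0.27), each as a log2 fold change, and G0s2, the inhibitor of adipose triglyceride lipase, at 8.11 and 8.13 CPM.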

How the data were processed

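RNA of the SVF of gonadal WAT from 8 mice was analysed, 1 library per mouse, grouped by the treatment and numbered by the mouse number in the labels. The authors deposited raw counts of reads per gene and, as an other value, gene lengths in bases. The build is mm10 per the submitters' processing notes, and the aligner, counting tool and annotation are not given in the sources used here. Between replicates of a group, the chi-square of counts per degree of freedom was at least 7.91, and no library was taken for a repeat.

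The test was edgeR's quasi-likelihood test (version 4.0.16, R 4.3.3) after filterByExpr (minimum count 10) and TMM scaling (treatment as the only term, as the study compares these groups), with Benjamini-Hochberg adjustment over 15963 genes. Each standard error comes from the gene's F statistic (3.14 prior degrees of freedom), and none is given where the log2 fold change was near 0 to within rounding (G0s2). On simulated counts with 200 genes changed by a log2 fold change of 2, 90% were recovered with 2.7% false calls. Smaller changes, such as those measured for the 10 genes, were not simulated. Log2 CPM used a prior count of 2, and FPKM was computed from TMM-scaled CPM and the deposited length. DESeq2 1.42.0 and limma 3.58.1 gave alternatives. Correlations used two-sided exact permutation tests in scipy 1.17.1 (Python 3.11.15). At these depths 3 counts are 0.162 to 0.221 CPM, which covers counting error only. Labels name separate mice, so p-values measure the spread between mice.

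The 10 genes, the gene lists and the tests were chosen with earlier results of these data known. The genes named are the 10, the mature adipocyte markers, the 4 most abundant genes and the 2 of lowest p in each pathway list, and the 10 genes whose log2 CPM correlated most with Adipoq, apart from items that are not reported here. The alternatives were other normalizations and filters, the robust option, limma on log2(FPKM + 1), a covariate for epididymis genes, leaving out control mouse 2 and anti-BAFF mouse 7, and leaving out each mouse in turn. The relations of the other genes to marker lists and the sums without the lipases were added after seeing the data.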

Additional observations from a re-analysis of the deposited data

Results flagged for a closer look

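In 48 groups of 4 mice (the 10 genes, their sum and the sums of marker lists, in both groups), 3 held a mouse far from the other 3 by Dixon's test, where chance would give 2.4. Cfd was at 2.85 CPM in control mouse 1, against 9.11 to 9.93 CPM in the other control mice. The lipid-associated macrophage markers summed to 8580 CPM in the same mouse. The neutrophil markers summed to 168 CPM in anti-BAFF mouse 5.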

How the results depend on the processing

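The count of called genes was 0 of 10, and 0 in each pathway list, under each alternative run, while the number called among all genes ranged from 2 to 70. Without control mouse 1, 5 other adipokine, 5 adipogenic and metabolic, 2 receptor, 1 droplet and 0 lipolysis genes were under 0.05 unadjusted. With all 8 mice these counts were 0, 1, 0, 0 and 0. The share of all genes under 0.05 is not given without control mouse 1, so a rise particular to these lists was not tested. The log2 fold changes of 7 of the 10 genes kept their sign under each alternative. That of Lipe, 0.01, was -0.0107 with upper quartile scaling, -0.000897 with library size only, -0.00202 with at least 10 counts in every mouse and -0.0027 with the epididymis covariate, and ran from -0.0574 to 0.108 with a mouse left out. That of Pnpla2 was 0.0080 without the 2 mice high in epididymis genes and ran from -0.0943 to 0.0288 with a mouse left out, and that of Rbp4 ran from -0.47 to 0.13. Without the 2 mice high in epididymis genes Lipe was at 0.14, a move larger than its standard error of 0.11, Lep at 0.0091 and Cfd at -0.0968. With a mouse left out, the number of neighbour pairs that differed ran from 0 to 3, and the correlation with Adipoq ran from -0.33 to 0.37 for Lep, -0.16 to 0.72 for Rbp4, -0.14 to 0.43 for Lipe and -0.702 to 0.0800 for Pnpla2. Group-centred values gave r = -0.14 for Lep and for the neutrophil markers, which had -0.13 with the list mean. The causes were not tested. With list means in place of sums, Rbp4 with macrophage markers (r = -0.86) and Pnpla2 with brown adipocyte markers (r = -0.78) no longer passed. Of the 117 relations to marker lists, 8 passed as reported, 10 with list means, 13 without TMM and 17 with group-centred values. No paired analysis was possible because the mouse numbers of the groups differ. Depth limits Adrb3 and Retn most, and with 4 mice a group a change within the intervals given could not be seen.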

Other observations

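Outside the 10 genes, levels most like that of Adipoq over the 8 mice, by Pearson's r of log2 CPM, included those of Gm15787 (r = 0.99), Tnik (0.96), BC024063 (0.94), Gm37233 (0.94), Ttc3 (0.94), Coro6 (0.93), Ebf4 (0.92), Smad5 (0.92) and Npff (0.92). None was called between the groups. They are among the highest of 15962 genes, so their r is a description. Gm15787, BC024063 and Npff were scarce, at 0.826, 0.612 and 0.665 CPM on average, while Ttc3 was at 70.8 and Smad5 at 58.2 CPM. In the same ranking Adrb3 stood at place 98, Cidec at 155, Plin1 at 491, Cfd at 1144, Lep at 7587 and Pnpla2 at 12304.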
